A study of Mus musculus with 18 samples.

Results

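The BCL2 family sets whether a cell opens the outer membrane of its mitochondria and dies by apoptosis, and 10 of its genes are described here: the pro-survival genes Bcl2, Bcl2l1 and Mcl1, the effectors Bax and Bak1, and the BH3-only genes Bcl2l11, Bbc3, Pmaip1, Bid and Bad. They were taken by gene name from the expression tables, where each occurred once among 55183 genes of the cell table and once among 19464 genes of the brain table. The cells were PTCP53 304, 1 mouse line labelled as Sonic hedgehog (SHH) medulloblastoma with the genotype Ptch1+/-; Trp53-/-, exposed to CT-179, a small-molecule inhibitor of the transcription factor OLIG2, or to vehicle, and sampled at 144 h (culture day 6) or 24 h (culture day 1). The tissue was whole brain of Ptch1+/- mice, whose genotype label adds the unexplained letters IR, taken at postnatal day 15 after 12 days of CT-179 or vehicle begun at postnatal day 3. Each of the 6 groups had 3 libraries, and every group carries the Ptch1 mutation. Separate cultures or animals are not stated for the replicates, so p-values measure the spread between these libraries, which may be technical.

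In the intact cell, BCL-2 (Bcl2), BCL-XL (Bcl2l1) and MCL-1 (Mcl1) hold the effectors BAX and BAK in check. BH3-only proteins are made or activated on damage, growth factor loss or other stress, and they either occupy the pro-survival proteins or engage the effectors directly, after which BAX and BAK form pores that release cytochrome c. In the developing cerebellum this pathway removes surplus granule neuron precursors, the cells from which SHH medulloblastoma arises, and BCL-XL and MCL-1 are known as survival factors of neural cells. Much of the family's control is exerted on protein, by phosphorylation, cleavage or degradation, which transcript levels do not measure.

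All values are FPKM (fragments scaled by transcript length and by library size), so genes may be compared with each other within a table. The depth implied by the smallest steps of the values was 2.84e+07 to 6.84e+07 reads in the cell libraries and 1.71e+07 to 6.09e+07 in the brain libraries. The CT-179 144 h replicate 2 differed from the rest of its group, with Pearson's r of 0.941 and 0.943 to its fellow replicates, while each of the other cell libraries reached 0.996 or more with a replicate of its group. Results that rest on it are given with and without it. In brain vehicle replicate 2, Lars2 and a gene that overlaps it took 12.99% of the implied reads, against 0.0761% or less in the other brain libraries. Of the genes that mark granule precursors and SHH medulloblastoma, Atoh1 and Barhl1 lay under 0.1 FPKM in every cell library, while Zic1 averaged 16.1 and Gli1 20.4 FPKM in vehicle at 144 h. Every microglia, endothelium and red cell marker also lay under 0.1 FPKM. Trp53 was listed at 6.84 to 15.8 FPKM in the cells, and as the labels do not say which part of the gene is deleted, these values do not test the genotype. Olig2, the gene of the drug target, averaged 203 ± 19.7 FPKM with CT-179 and 201 ± 4.27 with vehicle at 144 h, and 401 ± 10.9 with CT-179 and 382 ± 15.2 with vehicle at 24 h (SD, n = 3 each).

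Mcl1, Bax and Bak1 made up most of the family's transcript in the cells. At 144 h in vehicle the order of mean levels was Mcl1 (59.7 ± 1.61 FPKM), Bax (41.6 ± 1.42), Bak1 (37.7 ± 1.16), Bad (11.6 ± 0.404), Bcl2l1 (11.3 ± 0.0825), Bcl2l11 (5.45 ± 0.0771), Bbc3 (4.17 ± 0.0704), Bid (2.76 ± 0.240), Bcl2 (1.82 ± 0.0764) and Pmaip1 (0.0737 ± 0.0456) (SD, n = 3). Only Bad and Bcl2l1 were neighbours whose libraries overlapped. At 24 h in vehicle the order was Bax (52.8 ± 2.17), Mcl1 (51.4 ± 1.49), Bak1 (41.4 ± 2.71), Bad (8.81 ± 0.265), Bcl2l1 (6.16 ± 0.333), Bcl2 (3.04 ± 0.127), Bid (2.65 ± 0.159), Bcl2l11 (1.86 ± 0.194), Bbc3 (1.07 ± 0.0397) and Pmaip1 (0.262 ± 0.0270) (SD, n = 3), and only Bax and Mcl1 overlapped. Bcl2l11 and Bbc3 thus stood above Bid and Bcl2 at 144 h and below them at 24 h. Bcl2, the gene for which the family is named, was the lowest of the pro-survival members Bcl2, Bcl2l1 and Mcl1 in all 12 cell libraries, at 1.07 to 3.17 FPKM.

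**Figure D1:**
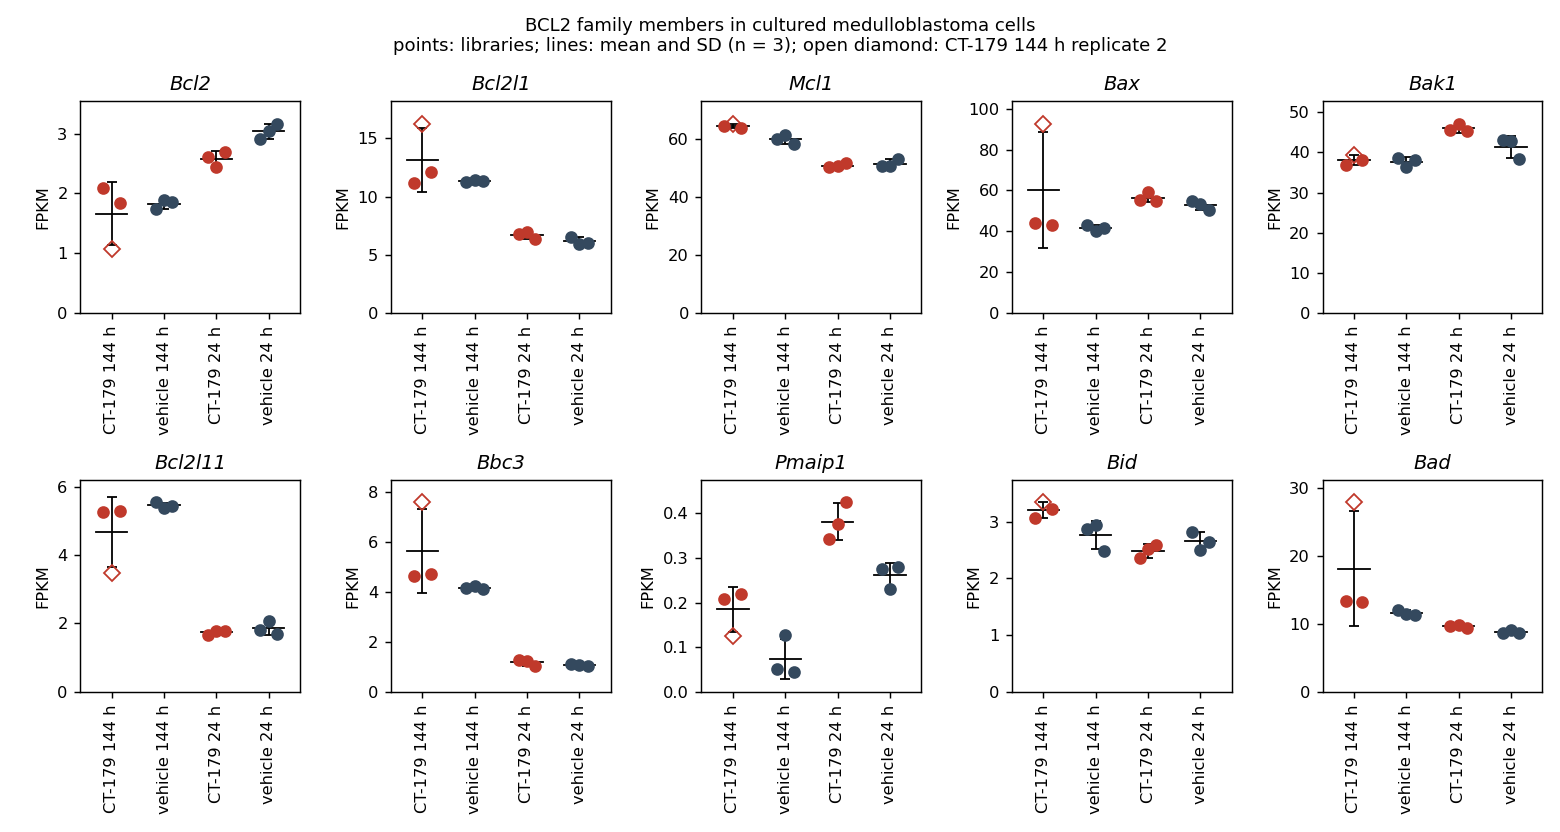
FPKM (vertical axes, from 0) of each family member in the 12 cell libraries, by treatment and time, with the mean and SD of each group (n = 3). Bcl2l11 and Bbc3 lie higher at 144 h than at 24 h in both treatments, and the open diamond, CT-179 144 h replicate 2, is the highest library for Bax at 92.8 FPKM and for Bad at 27.9 FPKM.

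The change with time in culture, 144 h over 24 h, was tested in each treatment with limma on log2(FPKM + 1), over the 12510 genes that reached 1 FPKM in at least 3 of the 12 libraries, with Benjamini-Hochberg adjustment over all of them. Of the members 9 passed that filter and Pmaip1 did not. In vehicle 5 of the 9 changed: Bbc3, Bcl2l11, Bcl2l1 and Mcl1 rose and Bcl2 fell. Most genes differed between the times, as 66.5% of all genes tested were called, 34.1% higher and 32.4% lower. The members' share is therefore not above that background, and their median log2 change was 0.21, against 0.01 over all genes tested. In CT-179, 8 of the 9 changed, 6 of them higher and 2 lower, against 65.3% of all genes, 33.2% higher and 32.1% lower. In bulk RNA, fewer cells of a type and less RNA per cell cannot be told apart.

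Among the BH3-only genes, Bbc3 encodes PUMA, a target of p53 and of FOXO factors that binds all the pro-survival proteins. It was listed at 4.14, 4.25 and 4.12 FPKM in vehicle at 144 h, against 1.11, 1.07 and 1.03 FPKM in vehicle at 24 h. No library at 144 h came near the 24 h range, the ratio of means was 3.90, and Bbc3 rose by 1.32 ± 0.14 on the log2 scale (SE, limma adjusted p = 8.55e-06). In CT-179 it was listed at 4.63, 7.58 and 4.71 FPKM at 144 h and at 1.28, 1.21 and 1.03 FPKM at 24 h, a rise of 1.58 ± 0.14 (adjusted p = 2.06e-06), and of 1.39 ± 0.05 without replicate 2 at 144 h (adjusted p = 2.08e-10).

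Bcl2l11 encodes BIM, a BH3-only protein induced on growth factor loss and a known FOXO target. Its levels were 5.54, 5.39 and 5.44 FPKM in vehicle at 144 h, against 1.80, 2.08 and 1.70 FPKM in vehicle at 24 h. The groups lay apart by more than their own spread, with a ratio of means of 2.93, and Bcl2l11 rose by 1.18 ± 0.12 (SE, limma adjusted p = 6.17e-06). In CT-179 the levels were 5.25, 3.49 and 5.29 FPKM at 144 h and 1.65, 1.76 and 1.79 FPKM at 24 h, a rise of 1.04 ± 0.12 (adjusted p = 1.75e-05), with replicate 2 the lowest of its group. Without replicate 2 at 144 h the rise was 1.20 ± 0.05 (limma adjusted p = 9.62e-10).

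Bbc3 and Bcl2l11 were the members with the largest rises in vehicle, and 250 bases before 1 start site of each are shown. They were read from RefSeq windows on GRCm38.p6. Of the windows of these 2 genes, only those that hold the FOXO motif before the start are printed. The capitals mark the FOXO core motif TGTTTAC or its reverse complement GTAAACA. The Bcl2l11 window is chr2:128125788-128126037 and the Bbc3 window chr7:16310011-16310260, both on the plus strand. The Bbc3 window lies inside the span of that gene, which begins at 16308393.
Bcl2l11: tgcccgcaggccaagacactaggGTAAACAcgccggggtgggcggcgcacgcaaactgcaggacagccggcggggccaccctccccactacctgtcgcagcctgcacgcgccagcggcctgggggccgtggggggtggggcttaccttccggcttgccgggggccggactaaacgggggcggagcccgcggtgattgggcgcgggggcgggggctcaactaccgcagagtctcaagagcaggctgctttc
Bbc3: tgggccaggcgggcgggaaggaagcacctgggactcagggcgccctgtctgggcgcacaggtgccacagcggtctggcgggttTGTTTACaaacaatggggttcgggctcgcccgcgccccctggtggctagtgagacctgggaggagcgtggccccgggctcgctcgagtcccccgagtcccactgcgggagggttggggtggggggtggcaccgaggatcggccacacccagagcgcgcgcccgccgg
The motif was searched on both strands in windows from 250 bases before to 50 bases after a start, which 9 of the 10 members had, in 15 windows. It was found 227 bases before the start of Bcl2l11 in 1 of its 2 windows and 167 bases before that of Bbc3 in 1 of its 3 windows, and in no window of another member. Of all 32851 windows 3.65% hold it, and of all 27025 genes 4.05% have it in a window. The E-box CAGCTG, a form of the CANNTG core that basic helix-loop-helix factors such as OLIG2 bind, was found in 1 member window, 29 bases after the start of Bcl2l11, and in 16.3% of all windows. These are matches of letters and no measure of binding.

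Bad and Bid had smaller log2 changes with time in vehicle. Bad, whose protein is kept inactive by survival kinases, was listed at 12.0, 11.4 and 11.3 FPKM in vehicle at 144 h, against 8.62, 9.11 and 8.70 FPKM in vehicle at 24 h. All 3 libraries at 144 h were above those at 24 h, but the log2 change of 0.36 ± 0.22 did not pass over all 12 libraries (SE, limma adjusted p = 0.172) and did without CT-179 144 h replicate 2, which enters the common estimate of the spread (0.36 ± 0.03, adjusted p = 7.68e-07). Bid, whose protein is cleaved by caspase-8 and so links death receptors to the mitochondria, was listed at 2.87, 2.93 and 2.49 FPKM in vehicle at 144 h and at 2.82, 2.50 and 2.64 at 24 h. These ranges overlap, and its log2 change was 0.04 ± 0.07 (adjusted p = 0.598). In CT-179, Bid had 3.05, 3.34 and 3.22 FPKM at 144 h against 2.35, 2.51 and 2.58 FPKM at 24 h and rose by 0.27 ± 0.07 (adjusted p = 0.00435), and Bad rose by 0.77 ± 0.22 (adjusted p = 0.0101), and by 0.43 ± 0.04 without replicate 2 at 144 h (adjusted p = 4.83e-07). Pmaip1, which encodes NOXA, a p53 target that binds MCL-1, was near the limit of detection.

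Pmaip1 was listed at 0.0501, 0.126 and 0.0447 FPKM in vehicle at 144 h, which correspond to 4.99, 11.0 and 3.98 implied reads. At 24 h in vehicle it was listed at 0.275, 0.231 and 0.280 FPKM, or 23.9, 20.9 and 16.9 implied reads. No library at 144 h reached the 24 h range, in vehicle or in CT-179, and the ratio of means was 0.281 in vehicle. In the fit without the filter on low values, which counts as an alternative, Pmaip1 fell by 0.23 ± 0.04 on the log2(FPKM + 1) scale in vehicle (limma adjusted p = 0.00116) and by 0.22 ± 0.04 in CT-179 (adjusted p = 0.0017).

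The pro-survival genes did not move together. Bcl2l1, whose main product BCL-XL protects neurons and many tumour cells, was listed at 11.3, 11.4 and 11.4 FPKM in vehicle at 144 h, against 6.54, 5.93 and 6.02 FPKM in vehicle at 24 h. The groups did not overlap and Bcl2l1 rose 1.84-fold by the ratio of means (log2 change 0.79 ± 0.11, limma adjusted p = 9.9e-05). Bcl2 was listed at 1.74, 1.88 and 1.85 FPKM in vehicle at 144 h, against 2.92, 3.04 and 3.17 FPKM in vehicle at 24 h, again with no overlap, and fell by 0.52 ± 0.12 (adjusted p = 0.0034). Mcl1, a short-lived protein's gene, had 59.7, 61.4 and 58.2 FPKM at 144 h against 50.6, 50.5 and 53.1 FPKM at 24 h in vehicle and rose by 0.21 ± 0.05 (adjusted p = 0.00302). In CT-179 the same genes were called in the same directions, with log2 changes of 0.87 ± 0.11 for Bcl2l1, 0.34 ± 0.05 for Mcl1 and -0.45 ± 0.12 for Bcl2 (limma, SE). Without replicate 2 at 144 h the change of Bcl2 in CT-179 was -0.28 ± 0.06 (adjusted p = 0.000579). The changes of Bcl2l1 and Mcl1 were then 0.71 ± 0.05 and 0.33 ± 0.03 (limma adjusted p = 4.03e-08 and 7.42e-07).

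In vehicle the effectors had the lower values at 144 h. Bax, a p53 target whose protein moves to the mitochondria on activation, was listed at 43.1, 40.2 and 41.6 FPKM in vehicle at 144 h and at 54.7, 53.2 and 50.5 FPKM in vehicle at 24 h. The groups did not overlap, and the log2 change was -0.34 ± 0.23 over all 12 libraries (limma adjusted p = 0.222) and -0.34 ± 0.04 without CT-179 144 h replicate 2 (adjusted p = 4.4e-06). Bak1, whose protein sits in the mitochondrial membrane already, was listed at 38.6, 36.4 and 38.1 FPKM in vehicle at 144 h and at 43.1, 42.8 and 38.3 at 24 h. In vehicle these ranges overlap at 1 library of each time (log2 change -0.13 ± 0.06, adjusted p = 0.0801). In CT-179, Bak1 had 36.9, 39.4 and 38.1 FPKM at 144 h against 45.5, 47.2 and 45.2 FPKM at 24 h and fell by 0.26 ± 0.06 (adjusted p = 0.00291). Without that replicate the counts for time were 8 of 9 in vehicle, 5 higher and 3 lower, against 87.7% of all genes, 44.2% higher and 43.4% lower. They were 9 of 9 in CT-179, 6 higher and 3 lower, against 85.6% of all genes, 43.9% higher and 41.7% lower.

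**Figure D2:**
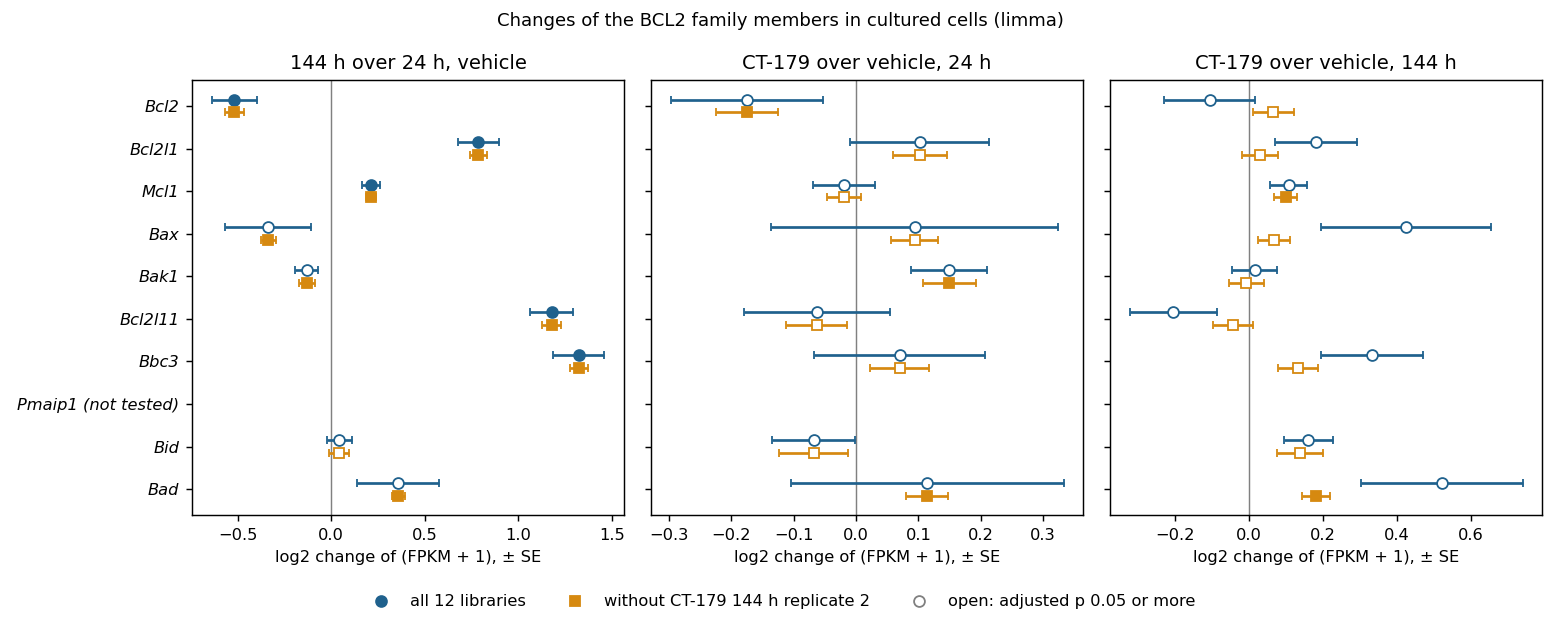
Log2 change of (FPKM + 1) with its standard error (horizontal axes) for each member in 3 comparisons, over all 12 cell libraries (circles) and without CT-179 144 h replicate 2 (squares); filled symbols have an adjusted p under 0.05. Between 24 h and 144 h in vehicle, Bbc3 and Bcl2l11 changed most, at 1.32 and 1.18, and no member is filled for CT-179 over vehicle when all libraries are used.

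Cell type markers also differed between the times. The 7 granule precursor and SHH medulloblastoma markers summed to 39.5 to 40.4 FPKM in vehicle at 144 h and 19.5 to 20.5 FPKM at 24 h. At 144 h that sum is carried by Gli1 and Zic1, while Atoh1 and Barhl1 lay under 0.1 FPKM in every cell library. The 4 astrocyte markers summed to 462 to 468 FPKM in vehicle at 144 h, against 94.8 to 97.9 FPKM at 24 h. The 4 oligodendrocyte precursor markers summed to 242 to 248 FPKM in vehicle at 144 h and 401 to 432 FPKM at 24 h, and the 5 neuron markers to 20.3 to 21.1 FPKM at 144 h and 5.29 to 5.72 FPKM at 24 h. The precursor sum is carried by Olig2, and Pdgfra ran the other way, with 21.4 ± 0.294 FPKM in vehicle at 144 h and 6.54 ± 0.398 FPKM at 24 h. The neuron sum is carried at 144 h by Tubb3, with 16.9 ± 0.441 FPKM at 144 h and 0.371 ± 0.0742 FPKM at 24 h, while Syt1 had 3.37 ± 0.0607 FPKM at 144 h and 4.6 ± 0.222 FPKM at 24 h (SD, n = 3 each). The oligodendrocyte markers Mog and Mag lay under 0.1 FPKM in every cell library. The part of these markers in the members' changes was not tested.

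CT-179 over vehicle at 24 h gave no called member, 0 of 9, where 0.264% of all genes tested were called. By the same fit 1 member, Bak1, had an unadjusted p under 0.05, as did 5.12% of all genes. The largest differences were small: Bak1 had 45.5, 47.2 and 45.2 FPKM with CT-179, against 43.1, 42.8 and 38.3 FPKM with vehicle, a log2 change of 0.15 ± 0.06 (SE, limma adjusted p = 0.835). Bcl2 had 2.6, 2.44 and 2.70 FPKM with CT-179, against 2.92, 3.04 and 3.17 FPKM with vehicle, a log2 change of -0.18 ± 0.12 (adjusted p = 1). For 4 of 9 tested members, Bcl2, Bax, Bak1 and Bad, the treatments did not overlap, Bcl2 with the lower values under CT-179 and the other members with the higher, and the same was true of 37.3% of all genes tested.

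Pmaip1 was listed at 0.343, 0.377 and 0.424 FPKM with CT-179 at 24 h, or 49.8, 31.9 and 42.9 implied reads, against 0.275, 0.231 and 0.280 FPKM with vehicle. Every CT-179 library was above every vehicle library, with a ratio of means of 1.46, at a level of at most 49.8 reads. In the fit without the filter its log2(FPKM + 1) change was 0.13 ± 0.04 (limma unadjusted p = 0.0103, adjusted p = 0.475).

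Leaving out CT-179 144 h replicate 2, which does not belong to the 24 h groups and acts through the shared estimate of the spread, changed what was called at 24 h. Bcl2 fell by 0.18 ± 0.05 (limma adjusted p = 0.0275), and Bak1 and Bad rose by 0.15 ± 0.04 and 0.11 ± 0.03 (adjusted p = 0.0291 and 0.0326), so that 3 of 9 members passed where 22.2% of all genes did, 8.08% higher and 14.1% lower. The direction of the calls hung on the scaling: over all genes 1007 were higher and 1755 lower on FPKM as deposited, and 2623 higher and 1067 lower after median-of-ratios scaling. On that scaling Bcl2 no longer passed, and Bcl2l1, Bax, Bak1 and Bad did, all higher. Gene length moved with the treatment effect at 24 h, with a Spearman rho of -0.517 between the log2 change and exonic length across 11020 protein-coding genes, a description over genes that share libraries. Bcl2 is the longest member, at 9157 exonic bases, and Bak1 and Bad are shorter, at 2407 and 2558. With a length trend removed and the same library left out, 0 of 9 members passed at 24 h, where 13.4% of all genes did. The log2 changes were then -0.12 ± 0.05 for Bcl2, 0.10 ± 0.04 for Bak1 and 0.07 ± 0.03 for Bad (SE, limma adjusted p = 0.109, 0.126 and 0.216), and the part of length in these values was not tested.

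At 144 h, CT-179 over vehicle again gave 0 of 9 called members, where 3.88% of all genes tested were called, 0.512% higher and 3.37% lower, and 3 members (Bbc3, Bid and Bad) had an unadjusted p under 0.05, as did 29.2% of all genes. The widest differences lay in 1 library. Bax was listed at 44.1, 92.8 and 43.3 FPKM with CT-179, against 43.1, 40.2 and 41.6 FPKM with vehicle, and the ratio of means was 1.44 with replicate 2 and 1.05 without it. Bad was listed at 13.4, 27.9 and 13.2 FPKM with CT-179, against 12.0, 11.4 and 11.3 FPKM with vehicle, and the ratio was 1.57 with replicate 2 and 1.15 without it. In Bad the other CT-179 libraries still lay above all vehicle libraries.

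Without replicate 2, Bad rose by 0.18 ± 0.04 (limma adjusted p = 0.00506) and Mcl1 by 0.10 ± 0.03 (adjusted p = 0.0326), 2 of 9 members where 28.7% of all genes passed, 11.8% higher and 16.9% lower. After median-of-ratios scaling 2777 genes were higher and 1406 lower, against 1472 higher and 2108 lower on FPKM as deposited, and Mcl1, Bax, Bbc3, Bid and Bad passed, all higher. Mcl1 had 64.4, 65.2 and 63.7 FPKM with CT-179, against 59.7, 61.4 and 58.2 FPKM with vehicle, so its replicate 2 did not stand out and all CT-179 libraries were above all vehicle libraries. Bbc3 had 4.63, 7.58 and 4.71 FPKM with CT-179, against 4.14, 4.25 and 4.12 FPKM with vehicle, with a log2 change of 0.33 ± 0.14 over all libraries (adjusted p = 0.16) and 0.13 ± 0.05 without replicate 2 (adjusted p = 0.0852). With a length trend also removed, Bad alone passed, at 1 of 9, where 21.7% of all genes did. The treatments did not overlap for 6 of 9 tested members (Mcl1, Bax, Bbc3, Bid and Bad above and Bcl2l11 below), where 46.2% of all genes did not overlap.

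Bcl2l1, Bcl2, Bak1 and Bcl2l11 gave no call with or without replicate 2 at 144 h. Bcl2l1 was listed at 11.1, 16.3 and 12.1 FPKM with CT-179, against 11.3, 11.4 and 11.4 FPKM with vehicle, so the vehicle libraries lay within the CT-179 range. Bcl2 was listed at 2.08, 1.07 and 1.83 FPKM with CT-179, against 1.74, 1.88 and 1.85 FPKM with vehicle, and its log2 change was -0.11 ± 0.12 with replicate 2 and 0.07 ± 0.06 without it. Pmaip1 was listed at 0.208, 0.126 and 0.220 FPKM with CT-179, or 18.9, 14 and 21.9 implied reads, against 0.0501, 0.126 and 0.0447 FPKM with vehicle. Replicate 2 was listed at the same 3 digits in both groups, and the other CT-179 libraries were above the other vehicle libraries (no filter, limma adjusted p = 0.127).

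Beside these differences at 144 h, the 4 astrocyte markers summed to 454, 290 and 449 FPKM with CT-179, the low value being replicate 2, and 462 to 468 FPKM with vehicle, and the 7 granule precursor and SHH medulloblastoma markers to 22.4 to 30.9 FPKM with CT-179 and 39.5 to 40.4 FPKM with vehicle. Their part in the members' values was not tested. The difference between the CT-179 effects at 144 h and at 24 h was tested as an interaction and passed for 0 of 9 members, with log2 differences of -0.14 to 0.41, and 0% of all genes passed. Without replicate 2 it also passed for 0 of 9 members, against 2.66% of all genes, 1.2% higher and 1.46% lower. At an unadjusted p under 0.05 it held 1 member (Bid) with all libraries, against 4.59% of all genes, and 4 without replicate 2, against 16.4% of all genes. The comparisons of treatment and of time share their vehicle and CT-179 libraries and are not independent of each other.

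Many values of CT-179 144 h replicate 2 went with gene length. Against the mean of replicates 1 and 3, replicate 2 was 2.12 times as high for Bax, the shortest member with 1576 exonic bases, 2.10 times for Bad and 1.62 times for Bbc3 (2124 bases). It was 0.546 times as high for Bcl2 (9157 bases) and 0.662 times for Bcl2l11 (8029 bases). Mcl1, Bak1 and Bid differed little, at 1.02, 1.05 and 1.06 times. Bcl2l1, with 4586 bases among the longer members, was 1.40 times as high, and Pmaip1, with 2732 bases, 0.587 times, so these genes did not follow the order of length. Spearman's rho between the ratio and exonic length was -0.685 over the 10 members and -0.693 over 11020 protein-coding genes, as a description.

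**Figure D3:**
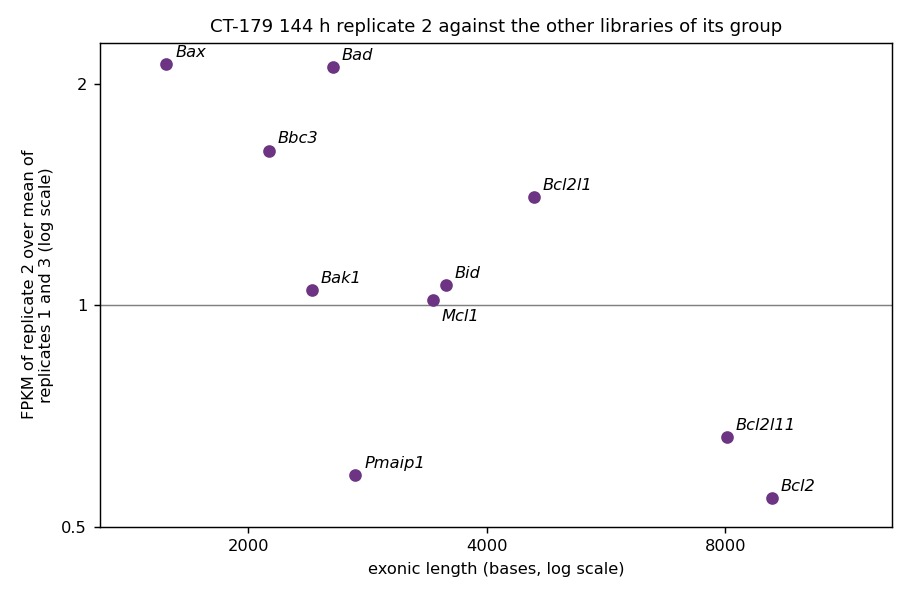
FPKM of CT-179 144 h replicate 2 over the mean of replicates 1 and 3 of its group (vertical axis, log scale) against exonic length in bases (horizontal axis, log scale), 1 point per member. The shortest member, Bax, has a ratio of 2.12 and the longest, Bcl2, a ratio of 0.546, with Pmaip1 (0.587) below the other members of its length.

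Summed by role, the make-up of the family differed between the times. The pro-survival genes made up 40.6% to 42.6% of the summed FPKM of the 10 members in vehicle at 144 h and 34.8% to 37.7% at 24 h. The effectors held 43.7% to 45.7% in vehicle at 144 h, against 53.6% to 56.7% at 24 h, and the BH3-only genes 13.4% to 13.8% at 144 h, against 8.47% to 8.79% at 24 h. None of these ranges overlapped. The pro-survival share with CT-179 was 41.9%, 32.1% and 41.8% at 144 h, where replicate 2 was the low one, and 32.9% to 34.4% at 24 h, which lies below the vehicle range of that time. As the shares are a sum over chosen genes of very unequal level, Mcl1, Bax and Bak1 set them for the most part.

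**Figure D4:**
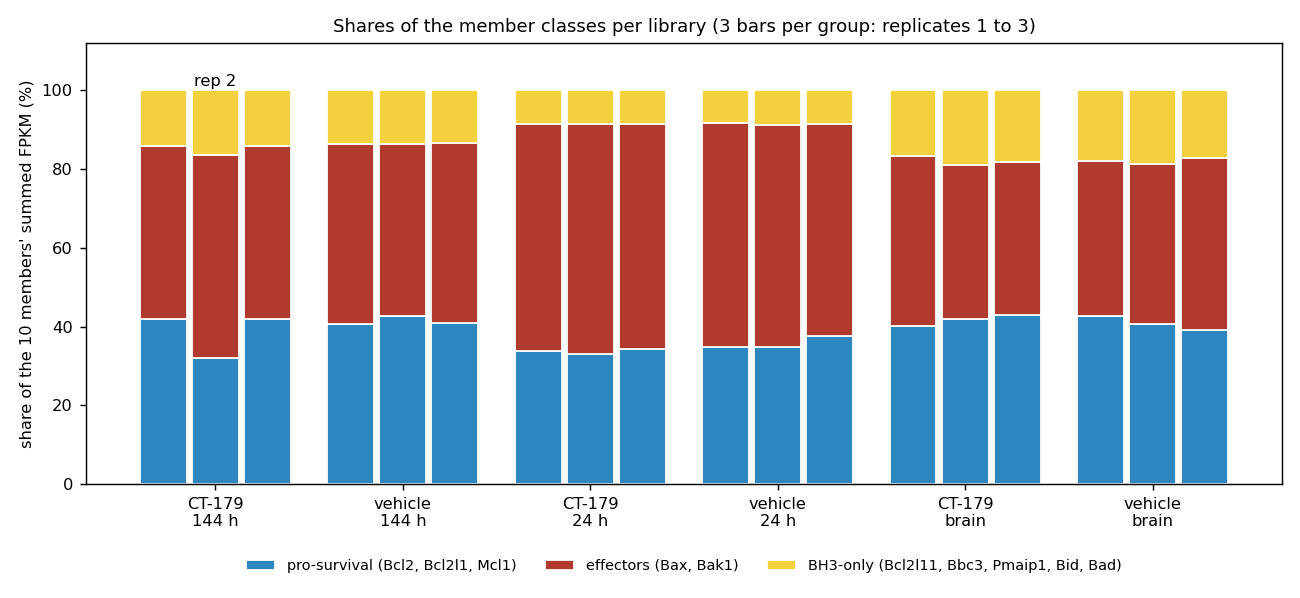
Share of the summed FPKM of the 10 members (percent, from 0) held by pro-survival, effector and BH3-only genes in each library, 3 bars per group. The BH3-only share is 13.4% to 13.8% in vehicle at 144 h and 8.47% to 8.79% at 24 h, and CT-179 144 h replicate 2 has the lowest pro-survival share, 32.1%.

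In whole brain no member passed the test of CT-179 over vehicle, 0 of 10, where 0% of the 13422 genes tested were called, and 0 members and 490 genes had an unadjusted p under 0.05 (limma). The members' log2 changes ran from -0.09 to 0.11. Bcl2l1 had 35.4, 35.6 and 33.8 FPKM with CT-179, against 33.5, 30.6 and 32.9 FPKM with vehicle, a log2 change of 0.11 ± 0.07 (SE, adjusted p = 0.97). Bad had 17.9, 16.9 and 16.8 FPKM with CT-179, against 16.5, 16.3 and 16.3 FPKM with vehicle, a change of 0.07 ± 0.07 (adjusted p = 0.97). For these 2 genes all CT-179 libraries lay above all vehicle libraries, 2 of 10 where 10.3% of all genes tested did not overlap, and for the other 8 the groups overlapped. Without vehicle replicate 2 the count stayed at 0 of 10, against 0.00754% of all genes. In the authors' deposited table for brain, the false discovery rate was 1 for all 10 members, while 17 of the 19464 genes had a rate under 0.05. The members' log2 fold changes there ran from -0.07 to 0.05. Across genes that fold change matched vehicle replicates 1 and 3 over CT-179 (Pearson's r 0.99965), so it runs the other way from the values here.

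Direction in the brain rests on the treatment label, since the titles of the CT-179 libraries also carry the word vehicle. The libraries labelled vehicle have column names that begin with C, and those labelled CT-179 have names that begin with V. Were the groups swapped, every direction given for brain would turn. The authors' fold change would then run CT-179 over vehicle. Which reading holds was not tested. Markers in the brain libraries varied as well. The 4 oligodendrocyte markers summed to 4183 to 5405 FPKM with CT-179 and 3936 to 4306 FPKM with vehicle, and the 7 granule precursor and SHH medulloblastoma markers to 85.9 to 111 FPKM with CT-179 and 106 to 119 FPKM with vehicle. The 4 red blood cell markers summed to 53.6 to 243 FPKM with CT-179 and 47.0 to 154 FPKM with vehicle. Their part in the members' values was not tested.

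The family's make-up in brain can be given beside that of the cells, though the tables were normalised separately and no test was made across them. Bax (53.5 ± 9.10 FPKM with CT-179, 52.5 ± 6.84 with vehicle), Mcl1 (36.1 ± 2.83 with CT-179, 35.6 ± 0.696 with vehicle) and Bcl2l1 (35.0 ± 1.01 with CT-179, 32.4 ± 1.56 with vehicle) led in brain (SD, n = 3 each). Mcl1 was 0.937 to 1.16 times as high as Bcl2l1 in the brain libraries, while in the cells it was 4.0 to 5.78 times as high at 144 h and 7.31 to 8.83 times at 24 h. Bax over Bak1 was 2.70 to 3.44 in brain, 1.21 to 1.32 in the cells at 24 h and 1.09 to 1.19 at 144 h without replicate 2, whose own ratio was 2.36. Pmaip1 reached 1.57 to 1.73 FPKM with CT-179 and 1.64 to 1.77 FPKM with vehicle in brain, above every cell library.

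**Figure D5:**
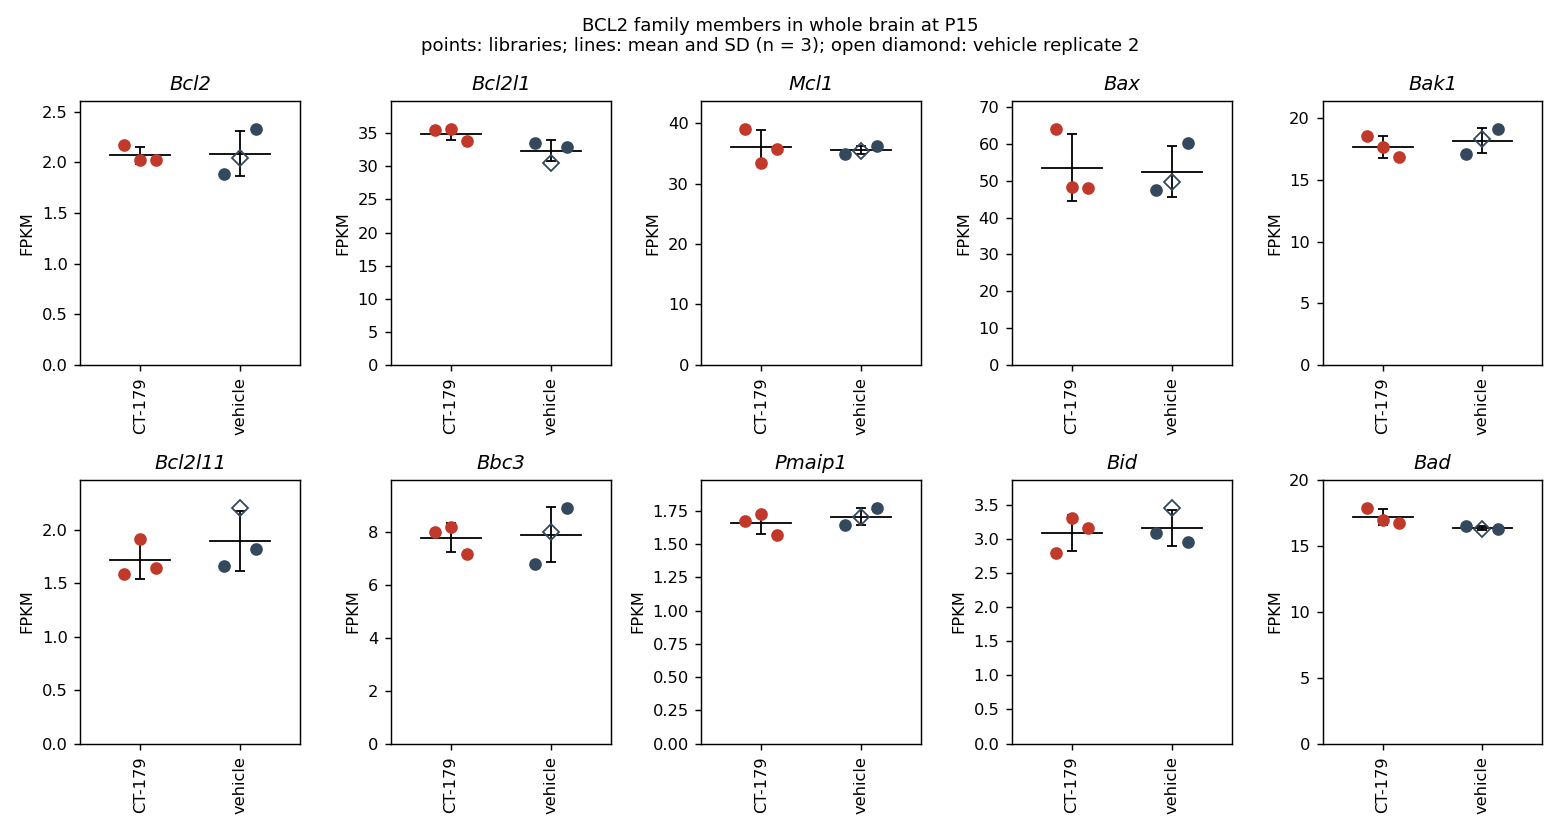
FPKM (vertical axes, from 0) of each member in the 6 whole-brain libraries at postnatal day 15, with the mean and SD of each group (n = 3); the open diamond is vehicle replicate 2. Only Bcl2l1 and Bad have all CT-179 libraries above all vehicle libraries, as 10.3% of all genes have no overlap, and neither passed the test.

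The rest of the pathway was read in the same fits. Of 5 other pro-survival genes only Bcl2l2, which encodes BCL-W, was expressed in the cells, as Bcl2a1a, Bcl2a1b, Bcl2a1d, close copies whose reads may be split, and Bcl2l10 lay under 0.1 FPKM in every library. Bcl2l2 averaged 6.73 ± 0.730 FPKM with CT-179 and 8.53 ± 0.0995 with vehicle at 144 h (SD, n = 3 each) and fell by 0.31 ± 0.07 (SE, limma adjusted p = 0.0392), and by 0.23 ± 0.04 without replicate 2 (adjusted p = 0.00104). In a fit of the 144 h libraries alone, where 0 of 11958 genes passed and 8.96% had an unadjusted p under 0.05, its adjusted p was 0.438. At 24 h it averaged 6.61 ± 0.183 FPKM with CT-179 and 7.77 ± 0.0133 with vehicle, a log2 change of -0.20 ± 0.07 (adjusted p = 0.545), and fell by 0.20 ± 0.03 without that library (adjusted p = 0.00158). In brain its change was 0.09 ± 0.11 (adjusted p = 0.975). At 24 h, 0 of the 42 tested genes of the 7 lists around the family passed with all libraries, against 0.264% of all genes, and 11 did without that library, against 22.2%. At 144 h, 1 passed, Bcl2l2, against 3.88% of all genes, and 12 did without that library, against 28.7%. In brain 0 of 44 passed, against 0% of all genes.

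With time in vehicle, 26 of the 42 tested genes of these lists passed, 10 higher and 16 lower, against 66.5% of all genes, 34.1% higher and 32.4% lower. Without CT-179 144 h replicate 2, 38 passed, 14 higher and 24 lower, against 87.7% of all genes. Of 6 tested other family members 2 rose, 1 fell and 3 did not pass with all libraries. Bmf, a BH3-only gene, averaged 23.2 ± 0.448 FPKM at 144 h and 2.30 ± 0.196 FPKM at 24 h and rose by 2.88 ± 0.12 (limma adjusted p = 7.2e-09), more than any of the 10 members. Bnip3l, a mitophagy receptor, rose by 0.45 ± 0.09 and Bcl2l12 fell by 0.65 ± 0.20. Of 13 apoptosome and caspase genes 2 rose and 7 fell: Casp9, the initiator caspase of the apoptosome, rose by 0.62 ± 0.09, while Cycs (cytochrome c) fell by 1.37 ± 0.16 and Aifm1 by 1.13 ± 0.05. Of 4 inhibitors of apoptosis Birc2 rose and Birc5 fell. Birc5, which encodes survivin and is made mainly by dividing cells, averaged 1.60 ± 0.0358 FPKM at 144 h and 23.0 ± 0.751 FPKM at 24 h.

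Vdac1, Vdac2 and Vdac3, the channels of the outer mitochondrial membrane, fell by 0.43 ± 0.13, 0.79 ± 0.13 and 0.82 ± 0.11, 3 of 4 mitochondrial partners (limma, SE). In the death receptor arm Fas and Tradd rose by 1.28 ± 0.11 and 0.60 ± 0.14 and Fadd fell by 0.75 ± 0.07, with 3 of 6 tested not passing. Among 8 tested regulators of the members 3 rose and 3 fell. Foxo1 averaged 6.33 ± 0.296 FPKM at 144 h and 2.82 ± 0.0854 at 24 h, a rise of 0.94 ± 0.08. Foxo3 averaged 23.3 ± 0.346 FPKM at 144 h and 10.3 ± 0.110 at 24 h, a rise of 1.11 ± 0.15. Ddit3, a stress-induced factor, rose by 1.32 ± 0.23 and Atf4 fell by 1.03 ± 0.12. The median changes of these lists ran from -0.61 for the mitochondrial partners to 0.13 for the death receptor arm, against 0.01 over all genes.

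Across the 12 cell libraries, the genes most like each member in log2(FPKM + 1) were found among 11323 genes. Bbc3 was most like Sat1 and Qpct (Pearson's r 0.998 each), Bcl2l11 most like Megf11 and Hyal1 (0.998 each) and Bcl2l1 most like Arf2 (0.998) and Ier5 (0.997). Bax was most like the mitochondrial ribosomal RNA gene mt-Rnr1 (0.996) and Psmb3 (0.992), and Bad most like Spcs2 and Smim7 (0.995 each). Bcl2 was most like Vav2 (0.991) and Hmbox1 (0.988), Mcl1 most like Ntn5 (0.987) and Lcn2 (0.985), Bak1 most like Pcid2 (0.959) and Pcnp (0.957), and Bid most like Prune1 (0.920) and Hs3st1 (0.898). These libraries share their groups, so such values mostly record the same differences between times and the same replicate 2.

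Exons of several members overlap those of another gene, and the strand of counting was not given, so reads could be shared. The overlap covers 20.5% of the exonic bases of Bad (Gpr137, opposite strand), 18.2% of Bak1 (an entry named Ggnbp1, opposite), 17.7% of Bid (Bcl2l13, opposite), 12.2% of Bax (Gm45808, same strand) and 6.09% of Bcl2 (D630008O14Rik, opposite). Another entry named Ggnbp1, also opposite, covers 7.35% of Bak1, and the share of both together was not measured. On mm10, Bcl2 lies on chromosome 1 (106538178 to 106714274), Bcl2l1 on chromosome 2 (152780668 to 152831728), Mcl1 on chromosome 3 (95658788 to 95663176), Bax on chromosome 7 (45461697 to 45466898), Bak1 on chromosome 17 (27019810 to 27029009), Bcl2l11 on chromosome 2 (128126038 to 128162547), Bbc3 on chromosome 7 (16308393 to 16318205), Pmaip1 on chromosome 18 (66458533 to 66465565), Bid on chromosome 6 (120891930 to 120916853) and Bad on chromosome 19 (6941861 to 6951899), all as protein-coding genes.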

How the data were processed

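Per the labels' protocols, RNA came from RNeasy columns, libraries from a SMARTer mRNA kit, and reads were paired. The submitters' processing notes name mm10 and R 3.6, with edgeR 3.28.1 beside HTSeq 0.6.1p2, STAR 2.6.0c and Trim Galore 0.5.0, in no stated order and with annotation and strandedness not given in the sources used here. Per the file headers, FPKM of each gene and library were deposited. For brain the authors also gave a log2 fold change, a log2 mean abundance, the p-value with its false discovery rate and the test's score. Exonic lengths and gene spans came from GENCODE vM21. Low FPKM values times length were whole multiples of 1 read, within 0.1 read and up to 20 reads, for 90.2% to 98.5% of values per library; the resulting depth is approximate, so no count model was run.

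Genes with at least 1 FPKM in 3 libraries were tested on the scale log2(FPKM + 1), using limma 3.58.1 under R 4.3.3 (group means, mean-variance trend, two-sided, Benjamini-Hochberg over all genes tested, threshold 0.05), 12 cell libraries in 1 fit and 6 brain libraries in another. The scale understates changes of low genes. The fit was run on simulated data of independent genes with larger changes and no library apart. That run does not measure the power to find changes as small as the members' treatment effects. Members, gene lists and comparisons were chosen with earlier results of these data known. Lists were named by counts and, at most, the 4 genes with the smallest p among those past the threshold, and the 2 most correlated genes were named per member. Alternatives were another pseudocount, no filter, median-of-ratios and TPM scaling, the replicate number as a block, a fit per time, removal of a length trend and each library left out. Promoter windows are RefSeq's.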

Additional observations from a re-analysis of the deposited data

How the results depend on the processing

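At 24 h the count of members called for CT-179 over vehicle was 0 with all libraries, against 0.264% of all genes. It was 1 in a fit of that time alone (Bcl2, lower), against 17.4% of all genes. With median-of-ratios scaling and CT-179 144 h replicate 2 left out it was 4, all higher. In that setting 29.7% of all genes were called, 2623 higher and 1067 lower. Over the libraries left out it ran from 0 to 3, the 3 without that same replicate, against 22.2% of all genes. At 144 h it was 0 with all libraries, against 3.88% of all genes. With median-of-ratios scaling and that replicate left out it was 5, all higher. In that setting 33.6% of all genes were called, 2777 higher and 1406 lower. Without that replicate and with a length trend removed (an alternative chosen after seeing the data) it was 1, against 21.7%. Over the libraries left out it ran from 0 to 2, the 2 without that same replicate, against 28.7%. For time in vehicle it was 5, where 66.5% of all genes were called. With median-of-ratios scaling and that replicate left out it was 8, where 87.8% were called, and over the libraries left out it ran from 5 to 8. In CT-179 cells it ran from 8 to 9, against 65.3% of all genes with all libraries and 85.6% without that replicate. For the interaction and brain it stayed at 0, against 0% of all genes with all libraries. The cause of these moves was not tested. No call of a member was lost when a library was left out.

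Every sign that turned belonged to a change not called with all libraries and not called where it turned. At 24 h Mcl1 was 0.033 with median-of-ratios scaling, 0.042 with that scaling and without the replicate, and -0.032 to 0.0043 over libraries left out. At 144 h TPM scaling, which moved the median of all genes to -0.20, gave -0.082 for Mcl1 and -0.17 for Bak1. Median-of-ratios scaling without the replicate gave 0.10 for Bcl2 and 0.0042 for Bcl2l11. A length trend removed gave 0.13 for Bcl2 and -0.18 for Bak1, and without the replicate 0.13 for Bcl2, -0.021 for Bax, -0.063 for Bak1 and 0.0060 for Bcl2l11. Over libraries left out Bcl2 ran from -0.22 to 0.066 and Bak1 from -0.0081 to 0.039. For the interaction, TPM scaling gave -0.048 for Bcl2l1 and -0.0038 for Mcl1, median-of-ratios scaling without the replicate -0.076 for Bcl2l1, -0.033 for Bax and 0.027 for Bcl2l11, a length trend removed 0.0092 for Bcl2l11, and both changes -0.072 for Bcl2l1, -0.034 for Bax and 0.024 for Bcl2l11. Over libraries left out, Bcl2 ran from -0.046 to 0.24, Bcl2l1 from -0.073 to 0.18, Bax from -0.026 to 0.52 and Bcl2l11 from -0.22 to 0.020. For time, Bid in vehicle was -0.0021 with median-of-ratios scaling, and Bax in CT-179 cells ran from -0.36, called without that replicate, to 0.18. In brain TPM scaling gave -0.073 for Mcl1, -0.068 for Bax and -0.021 for Bad, and over libraries left out Bcl2 ran from -0.052 to 0.050, Mcl1 from -0.040 to 0.069, Bax from -0.11 to 0.13, Bbc3 from -0.10 to 0.067 and Bid from -0.066 to 0.026. Of the other values of single genes, 918 kept their direction and side of the threshold, and 27 passed the threshold only in an alternative.

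The main fits used no pairing by replicate number. Deviations from group means correlated over 0.1 in 4 of 18 same-numbered pairs in cells and 1 of 3 in brain. Among pairs with different numbers this held for 5 of 36 in cells and 2 of 6 in brain. Between CT-179 at 144 h and CT-179 at 24 h, same-numbered pairs had r of 0.109, 0.241 and 0.138. Pairs with different numbers there ran from -0.242 to 0.153. Groups of 3 libraries cannot settle whether the numbers pair them. With the replicate number as a block the counts of members stayed at 0 at 24 h, 0 at 144 h and 0 in brain. Calls over all genes were then 2 at 24 h, against 33 without a block, 301 at 144 h, against 486, and 0 in brain. For time the counts stayed at 5 in vehicle, where 65.7% of all genes were called, and 8 in CT-179, where 64.6% were. Over all genes at 144 h, 64 calls were higher and 422 lower, and 114 and 297 with median-of-ratios scaling. Pmaip1, at 3.98 to 49.8 implied reads in the cells, is limited by depth, and the standard errors given for it measure the spread between libraries.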
